A study of Homo sapiens with 4 samples.

Results

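The 10 genes described here belong to the YAP/TEAD pathway: CCN1, CCN2, ANKRD1, AMOTL2, AJUBA, LATS2, YAP1, WWTR1, TEAD1 and TEAD4. They were taken by gene symbol from a table of 61806 genes, and each symbol matched a single row. The set was chosen by pathway after the counts of CCN2 in the control and treated libraries had been found to differ in opposite directions in the cell lines of the study. The responses to treatment are therefore given as a description, and the other genes were looked up to see whether they shared that of CCN2.

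RNA was sequenced from MDA-MB-231, an established breast cancer line, and MDA-MB-435, an established line labelled as melanoma, both wild type and called the breast line and the melanoma line below. Each line gave a control library and a library from cells treated with CPYPP for 6 h. CPYPP is an inhibitor of the DOCK proteins that activate the small GTPase RAC, and it was used in the study as an inducer of paraptosis, a cell death with cytoplasmic vacuoles. The dose was 10 µM by the treatment description, which mentions only MDA-MB-435 although it stands on the samples of both lines. No vehicle is given for the controls. There were 4 libraries, 1 per condition, so no difference has a replicate check and no test between conditions was made. Values are followed by 95% exact binomial (Clopper-Pearson) intervals, which cover counting error only, and sequencing reads without molecular identifiers are not independent molecules.

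YAP1 and WWTR1, the latter also known as TAZ, are coactivators that carry no DNA-binding domain of their own. They enter the nucleus when the Hippo kinase cascade, which ends in the kinases LATS1 and LATS2, is low, and there they bind the TEAD transcription factors, which recognize a short DNA element. CCN1, CCN2 and ANKRD1 are widely used as readouts of this pathway, while AMOTL2 and LATS2 are targets that act back to restrain it. CCN2 is also known to respond to TGF-beta through SMAD proteins and to actin dynamics through SRF and MRTF.

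The element bound by TEAD proteins is shown first, because YAP1 and WWTR1 reach DNA through it. In the RefSeq promoter windows of GRCh38.p14, 7 of the 10 genes had an entry, with 10 transcription starts in all, and CCN1, TEAD1 and TEAD4 had none. The 250 bases before each start were searched for GGAATG on both strands, so that its reverse complement CATTCC also counted. CCN2 held 3 copies and ANKRD1 held 2, while AMOTL2 and AJUBA each held 1 before the second of their 2 starts and YAP1 held 1. LATS2 and WWTR1 held 0 in these windows. Of all 35116 windows of the same length, 11.9% held at least 1 copy, 0.94% at least 2 and 0.0826% at least 3. The AP-1 element, searched as TGACTCA and TGAGTCA, was found in none of the 10 windows and in 4.2% of all windows. The 250 bases before the CCN2 start, read 5′ to 3′ on the minus strand at chr6:131951373-131951622, are given with the 3 copies in capitals.

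CCN2 promoter: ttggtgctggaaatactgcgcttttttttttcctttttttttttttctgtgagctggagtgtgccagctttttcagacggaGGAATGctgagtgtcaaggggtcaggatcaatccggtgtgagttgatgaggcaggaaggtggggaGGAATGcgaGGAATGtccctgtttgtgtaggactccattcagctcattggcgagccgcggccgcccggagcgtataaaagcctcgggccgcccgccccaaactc

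The first bases of the CCN2 copies lie 169, 104 and 95 bases before the start. The copies of the other genes are shown for comparison in windows of 30 bases, again 5′ to 3′ in the direction of the gene and with the element in capitals. They lie at chr10:90921290-90921319 and chr10:90921198-90921227 for ANKRD1, chr3:134374499-134374528 for AMOTL2 and chr14:22976884-22976913 for AJUBA, all on the minus strand, and at chr11:102110273-102110302 on the plus strand for YAP1. A match of letters is a description and does not show that a factor was bound in these cells.

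ANKRD1 distal: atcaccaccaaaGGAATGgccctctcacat

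ANKRD1 proximal: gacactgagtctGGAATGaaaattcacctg

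AMOTL2: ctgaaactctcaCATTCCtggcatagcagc

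AJUBA: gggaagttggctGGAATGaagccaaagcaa

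YAP1: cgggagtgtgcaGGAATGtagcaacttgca

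The libraries held between 17196385 and 22663954 counts, and the CPYPP library was the smaller in each line. Levels are counts per 1000000 counts of the TMM-scaled library (CPM), or CPM per kilobase of exon where genes are compared with each other. A fold change is a ratio of CPM, and a gene was called when the ratio was past 2-fold, the fold used in the study, among genes that had 10 or more counts in either library compared. The study also set a limit on the false discovery rate, which was not applied here, so its calls follow a stricter rule. The lines were checked against markers. SOX10, from the list of melanocyte markers, had 0 and 1 counts in the breast line and 3031 and 707 in the melanoma line. DCT had 1 and 3 counts against 658 and 464. MITF did not separate the lines, with 1585 and 690 counts in the breast line and 1405 and 809 in the melanoma line. The pigment cell genes PMEL, MLANA and TYR had at most 14 counts in each library of the melanoma line, and PMEL had 34 and 29 in the breast line. The summed level of 6 melanocyte markers was 215 CPM in the control of the melanoma line and 105 CPM after CPYPP. In the breast line the sum was 73.0 and 44.0 CPM, of which MITF alone gave 71 and 41.2 CPM. The sum of 6 epithelial markers was 1820 and 1610 CPM in the breast line against 290 and 250 CPM in the melanoma line, where CDH1 was at 0. Markers of fibroblasts summed to between 1.57 and 18.3 CPM with DCN at 0 in all libraries, and 3 leukocyte markers to between 0.21 and 2.06 CPM. The part of these shifts in the results was not tested.

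CCN2, which encodes a secreted matricellular protein also called CTGF, was higher after CPYPP in the breast line and lower in the melanoma line. The gene is ENSG00000118523 on the minus strand of chromosome 6, 131948176 to 131951372 of GRCh38. It had 4043 counts in the control of the breast line and 10575 after CPYPP, or 181 and 632 CPM. The melanoma line gave 1001 and 296 counts, or 42.1 and 15.5 CPM. The ratio was 3.49-fold upward (3.36 to 3.62) in the former line and 2.72-fold downward (2.38 to 3.10) in the latter. Both libraries of the breast line thus lay above both of the melanoma line, and the lines lay further apart after treatment. These are the values for which the set was proposed, and they carry no test.

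On the log2 scale the response of CCN2 was 1.80 in the breast line and −1.44 in the melanoma line, a gap of 3.24 between the lines. Among the 14262 genes that could be compared in both lines this was the 22nd largest gap in that direction, and 95% of those genes had a gap between −1.06 and 1.63. The pattern of being past 2-fold upward in the breast line and past 2-fold downward in the melanoma line was shown by 0.302% of them. By level per kilobase, CCN2 ranked 402nd in the control of the breast line and 68th after CPYPP. Its rank in the melanoma line went from 2461st to 5911th. The 296 counts of the treated melanoma line were the fewest of any of the 10 genes in any library, and the interval of that ratio was the widest among the calls. The antisense gene CCN2-AS1, which overlaps CCN2 on the other strand, had at most 3 counts in any library, and genes overlapping any of the 10 held at most 0.859% of that gene's counts (WWTR1). In bulk RNA, fewer cells of a type and less RNA per cell cannot be told apart.

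**Figure D1:**
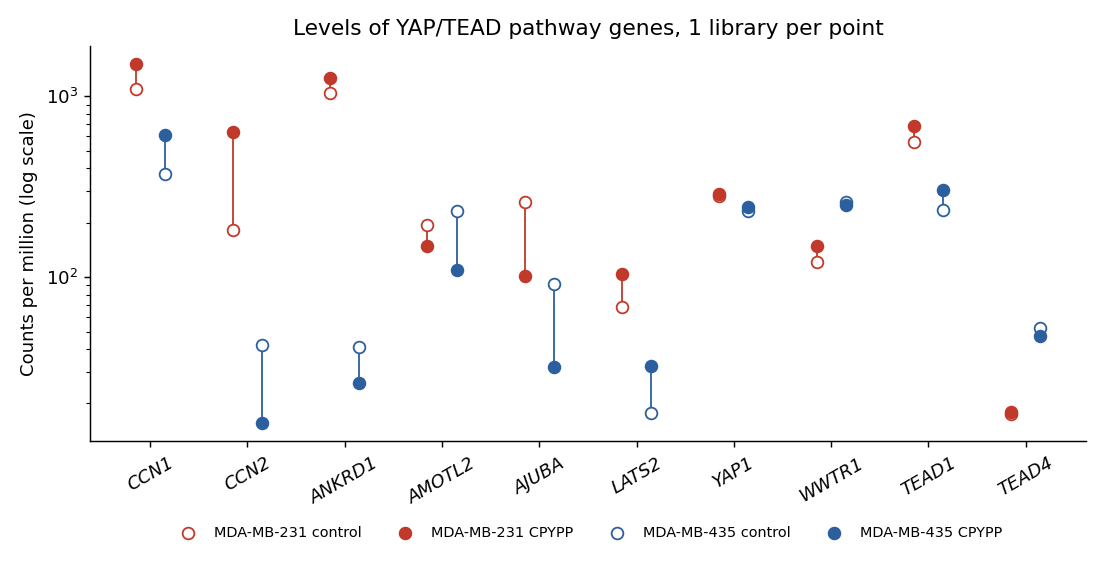
Level of each gene in CPM on a log axis, with open circles for control and filled circles for CPYPP libraries, red for MDA-MB-231 and blue for MDA-MB-435, each point being 1 library. CCN2 moves from 181 to 632 CPM in MDA-MB-231 and from 42.1 to 15.5 CPM in MDA-MB-435, whereas both points of AJUBA move downward.

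CCN1, the closest relative of CCN2 in this set and a secreted integrin ligand also called CYR61, did not share the opposite pattern. CCN1 (ENSG00000142871, chromosome 1, 85580761 to 85584589, plus strand) had 24511 and 25247 counts in the control and CPYPP libraries of the breast line and 8884 and 11648 in those of the melanoma line. In CPM the levels were 1100 and 1510 in the breast line and 373 and 610 in the melanoma line. The ratio was 1.37 (1.35 to 1.40) in the breast line and 1.63 (1.59 to 1.68) in the melanoma line, both upward and neither past 2-fold. Per kilobase, CCN1 stood at 297 in the control of the breast line against 77.5 for CCN2, and at 408 against 270 after CPYPP. The same levels in the melanoma line were 101 against 18 in the control and 165 against 6.63 after CPYPP. The levels of CCN1 and CCN2 thus came closer together in the breast line and further apart in the melanoma line.

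ANKRD1, an ankyrin repeat protein of muscle sarcomeres and nuclei and a common YAP readout, differed in the same directions as CCN2 but by less. ANKRD1 (ENSG00000148677, chromosome 10, 90912096 to 90921087, minus strand) had 23272 and 21067 counts in the breast line, which after scaling is 1040 and 1260 CPM. The melanoma line gave 978 and 494 counts, or 41.1 and 25.9 CPM. The ratio was 1.21 (1.18 to 1.23) upward in the breast line and 1.59 (1.43 to 1.78) downward in the melanoma line. The gap between the responses was 0.94 on the log2 scale, and 10.7% of genes had a gap at least as large in either direction. Within the set of 10, ANKRD1 was thus the only gene besides CCN2 whose counting intervals lay above 1 in the breast line and below 1 in the melanoma line, and neither of its changes was past 2-fold. The share of all genes with such intervals was not counted.

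AMOTL2 and AJUBA, which act on the Hippo kinases or their output, were lower after CPYPP in both lines. AMOTL2 (ENSG00000114019, chromosome 3, 134355347 to 134375479, minus strand), an angiomotin family protein that holds YAP1 in the cytoplasm, had 4324 and 2499 counts in the breast line, 194 and 149 CPM. The melanoma line gave 5491 and 2081 counts, 231 and 109 CPM. The decrease was 1.30-fold (1.24 to 1.36) in the breast line and 2.12-fold (2.01 to 2.23) in the melanoma line, just past the threshold. AJUBA (ENSG00000129474, chromosome 14, 22971177 to 22982551, minus strand), a LIM protein that binds and inhibits LATS kinases, had 5787 and 1712 counts in the breast line, 259 and 102 CPM, and 2164 and 612 counts in the melanoma line, 91.0 and 32 CPM. Its decrease was 2.54-fold (2.40 to 2.68) and 2.84-fold (2.59 to 3.11), which made it the only gene of the set past 2-fold in the same direction in both lines. Over all genes compared in both lines, 1.78% were past 2-fold downward in each.

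LATS2, the kinase that phosphorylates YAP1 and TAZ and is itself a YAP target, was higher after CPYPP in both lines. LATS2 (ENSG00000150457, chromosome 13, 20973036 to 21061586, minus strand) had 1517 and 1743 counts in the breast line, 68.0 and 104 CPM, and 423 and 613 counts in the melanoma line, 17.8 and 32.1 CPM. The ratio was 1.53 (1.43 to 1.64) in the breast line and 1.80 (1.59 to 2.05) in the melanoma line, just short of 2-fold. Its partner LATS1 had 1449 and 1362 counts in the breast line and 851 and 766 in the melanoma line, with ratios of 1.25 (1.16 to 1.35) and 1.12 (1.02 to 1.24).

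The coactivators had ratios between 0.967 and 1.23. YAP1 (ENSG00000137693, chromosome 11, 102110447 to 102233424, plus strand) had 6240 and 4836 counts in the breast line and 5517 and 4648 in the melanoma line. Its level was 280 and 289 CPM in the former line and 232 and 243 CPM in the latter, with ratios of 1.03 (0.995 to 1.07) and 1.05 (1.01 to 1.09), of which the second changed sides of 1 under another scaling. WWTR1 (ENSG00000018408, chromosome 3, 149517235 to 149736714, minus strand) had 2707 and 2502 counts in the breast line, 121 and 149 CPM, a ratio of 1.23 (1.17 to 1.30). The melanoma line gave 6169 and 4793 counts, 259 and 251 CPM, a ratio of 0.967 (0.931 to 1.01) whose side of 1 also depended on the scaling.

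The DNA-binding partners were within 1.5-fold. TEAD1 (ENSG00000187079, chromosome 11, 12674421 to 12944737, plus strand) had 12470 and 11512 counts in the breast line and 5560 and 5791 in the melanoma line, or 559 and 688 CPM against 234 and 303 CPM. The ratio was 1.23 (1.2 to 1.26) in the breast line and 1.30 (1.25 to 1.35) in the melanoma line. TEAD4 (ENSG00000197905, chromosome 12, 2959330 to 3040676, plus strand) had 389 and 300 counts in the breast line, 17.4 and 17.9 CPM, and 1244 and 905 counts in the melanoma line, 52.3 and 47.4 CPM. Its ratios were 1.03 (0.881 to 1.2) and 0.906 (0.830 to 0.988). The other family members had ratios of 1.01 (0.865 to 1.19) and 1.01 (0.888 to 1.15) for TEAD2, and 1.26 (1.15 to 1.39) and 1.33 (1.19 to 1.49) for TEAD3.

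**Figure D2:**
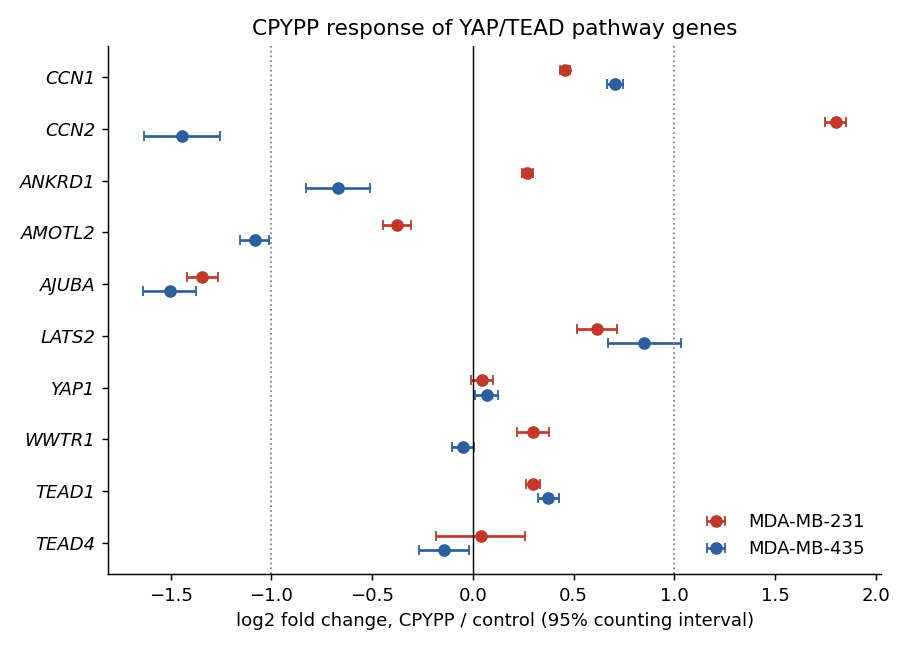
The log2 ratio of CPYPP to control for each gene, red for MDA-MB-231 and blue for MDA-MB-435, with bars for the 95% counting interval and dotted lines at a change of 2-fold. CCN2 stands at 1.80 and −1.44, and only ANKRD1, at 0.27 and −0.67, also has intervals on opposite sides of 0.

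Counted together, 1 of the 10 genes (CCN2) was past 2-fold upward in the breast line, where 5.02% of the 16441 genes examined were, and 1 (AJUBA) was past 2-fold downward, against 5.69% of all. In the melanoma line, 0 of the 10 were past 2-fold upward, against 3.62% of 16527 genes, and 3 (AJUBA, AMOTL2 and CCN2) were past it downward, against 10.7%. The median log2 fold change of the 10 genes was 0.28 in the breast line and −0.10 in the melanoma line, beside −0.04 and −0.07 over all genes. All 10 genes passed the minimum of 10 counts in both lines. With 1.5-fold as the limit, 2 genes were upward (CCN2 and LATS2) and 1 downward in the breast line, beside 11.3% and 13.2% of all genes, and 2 were upward (CCN1 and LATS2) and 4 downward in the melanoma line, beside 9.36% and 19.8%. With the whole counting interval required to lie past 2-fold, the members called were those named above, beside 1.12% upward and 0.535% downward of all genes in the breast line and 1.14% and 1.51% in the melanoma line. No member was lower in the breast line and higher in the melanoma line by more than 2-fold, which 0.0771% of genes were, and none was past 2-fold upward in each, which 1.12% were. The gap between the responses was over 2-fold for 1 of the 10, CCN2, and for 9.59% of genes. Since the set was proposed from this same contrast, these counts are a description.

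**Figure D3:**
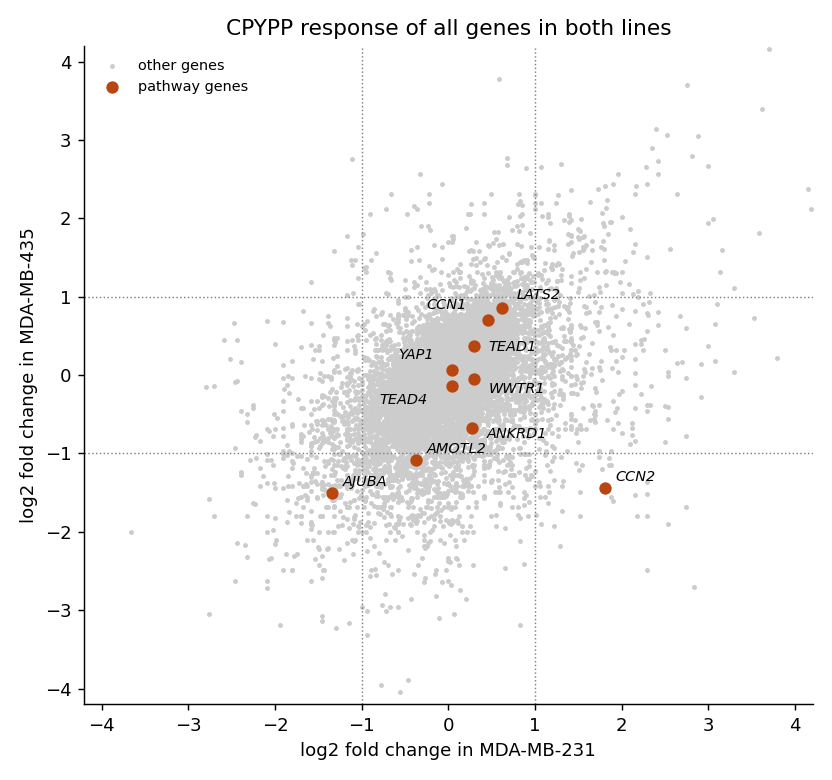
Each point is a gene with at least 10 counts in a library of each line, placed by its log2 fold change in MDA-MB-231 (horizontal) and MDA-MB-435 (vertical), with 13 genes outside the axes. ANKRD1, WWTR1 and TEAD4 share the lower right quadrant with CCN2, which is the only one of the 10 past both 2-fold lines there, and AJUBA is past both at the lower left. The quadrant of WWTR1 and TEAD4 is not settled, since the counting intervals of WWTR1 in MDA-MB-435 and of TEAD4 in MDA-MB-231 hold no change.

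The genes nearest to CCN2 in the plane of these responses were not from the pathway. Among 11084 genes with at least 50 counts in a library of each line, and by the Euclidean distance in log2 units over the 2 responses, the closest were ATP9A, a phospholipid flippase, at 0.644 and SOX6, a transcription factor, at 0.645. ATP9A had 162 and 298 counts in the breast line and 411 and 160 in the melanoma line, which is 2.45-fold upward (2.02 to 2.99) and 2.06-fold downward (1.71 to 2.49). SOX6 had 31 and 60 counts in the breast line and 209 and 86 in the melanoma line. Next came C2orf16 at 0.775, NNAT at 0.854 and CLDN4, a tight junction protein, at 0.855. CLDN4 had 988 and 1443 counts in the breast line and 79 and 26 in the melanoma line, and C2orf16 and NNAT had at most 75 counts in any library. Within the set, ANKRD1 was the nearest to CCN2 at a distance of 1.71, ranked 174th, and AJUBA the farthest at 3.14.

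The lines differed in the basal level of most of these genes. The set was not chosen on this contrast, but the control counts of CCN2 are part of the response for which it was proposed. ANKRD1 was 25.4-fold higher (23.8 to 27.1) in the control of the breast line than in the control of the melanoma line, the largest ratio of the set. CCN2 was 4.31-fold higher (4.02 to 4.62), LATS2 3.82-fold (3.43 to 4.27), CCN1 2.94-fold (2.87 to 3.01), AJUBA 2.85-fold (2.71 to 3.0) and TEAD1 2.39-fold (2.32 to 2.47). In the other direction, TEAD4 was 3.0-fold higher (2.67 to 3.37) and WWTR1 2.14-fold higher (2.04 to 2.24) in the melanoma line. YAP1 was 1.21-fold higher (1.16 to 1.25) in the breast line and AMOTL2 1.19-fold higher (1.14 to 1.24) in the melanoma line. Thus 6 of the 10 were past 2-fold toward the breast line, where 21.8% of 18269 genes were, and 2 toward the melanoma line, against 23.7%. These are differences between 1 library of each line and were not tested.

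Ordered by level per kilobase, the control of the breast line ran from ANKRD1 at 583 through CCN1 at 297, CCN2 at 77.5, TEAD1 at 52.2, YAP1 at 44.3, AJUBA at 44.1, AMOTL2 at 29.9, WWTR1 at 14.5 and LATS2 at 12.1 to TEAD4 at 7.66. The counting interval of the ratio between neighbours held 1 only for YAP1 and AJUBA, at 1.01 (0.970 to 1.04). In the control of the melanoma line the order was CCN1 at 101, YAP1 at 36.7, AMOTL2 at 35.6, WWTR1 at 31.0, ANKRD1 and TEAD4 at 23.0 each, TEAD1 at 21.8, CCN2 at 18, AJUBA at 15.5 and LATS2 at 3.17. There YAP1 and AMOTL2, TEAD4 and ANKRD1, and ANKRD1 and TEAD1 had intervals that held 1. The usual readouts ANKRD1, CCN1 and CCN2 were thus the 3 highest in the breast line. In the melanoma line CCN1 was the highest, ANKRD1 stood in the middle beside TEAD4 and TEAD1, and CCN2 came after them, while YAP1 stood at 44.3 and 36.7 in the breast and melanoma lines. TEAD1 led TEAD4 by level per kilobase in the breast line, at 52.2 against 7.66, whereas in the melanoma line they stood at 21.8 and 23.0.

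After CPYPP the ratio between the lines widened for CCN2, ANKRD1 and AJUBA. For CCN2 this restates the response for which the set was proposed. CCN2 stood 40.8-fold higher (36.3 to 45.9) in the breast line than in the melanoma line, and ANKRD1 48.7-fold higher (44.5 to 53.3). AJUBA went from 2.85-fold to 3.19-fold higher (2.91 to 3.51) in the breast line. WWTR1 went from 2.14-fold to 1.68-fold higher (1.6 to 1.76) in the melanoma line. AMOTL2 changed sides, from 1.19-fold higher in the melanoma line to 1.37-fold higher (1.29 to 1.45) in the breast line. For CCN1 and LATS2 the ratio became smaller, 2.47 (2.42 to 2.53) and 3.25 (2.96 to 3.56), and for TEAD1 it was 2.27 (2.2 to 2.34). In the treated libraries 6 of the 10 were past 2-fold toward the breast line, beside 22.7% of 17054 genes, and 1, TEAD4 at 2.64-fold (2.32 to 3.02), toward the melanoma line, beside 20.6%.

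**Figure D4:**
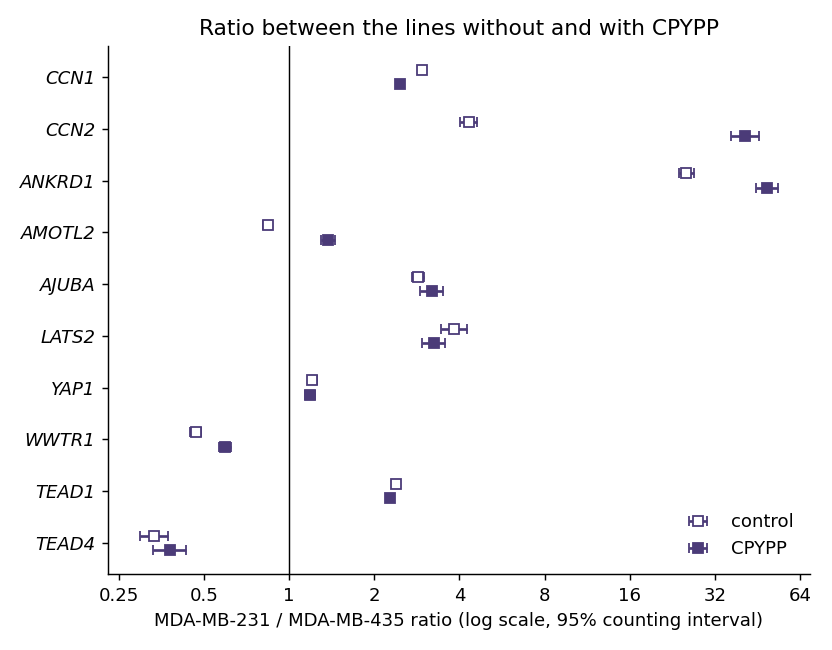
Ratio of CPM in MDA-MB-231 to CPM in MDA-MB-435 on a log axis, open squares for the control and filled squares for the CPYPP libraries, with bars for the 95% counting interval. CCN2 moves from 4.31 to 40.8 and ANKRD1 from 25.4 to 48.7, whereas YAP1 and TEAD1 keep nearly the same ratio.

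A wider list of 22 genes often used as a YAP/TAZ target signature, of which 5 belong to the set above, held genes past 2-fold in both directions. In the breast line, 2 of the 22 were past 2-fold upward (CCN2 and GADD45A) and 1 downward (FJX1), beside 5.02% and 5.69% of all genes. In the melanoma line, where IGFBP3 was at 0 and 21 could be examined, 1 was past 2-fold upward (GADD45A) and 3 downward (AMOTL2, CCN2 and FJX1), beside 3.62% and 10.7% of all genes. These few calls are near the shares over all genes. The median log2 fold change was −0.12 in the breast line and −0.21 in the melanoma line, and without the 5 genes above it was −0.24 and −0.21. The median of all genes was −0.04 and −0.07.

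Among the other 17 genes, FJX1, a secreted kinase of the four-jointed family, had 1131 and 342 counts in the breast line and 693 and 206 in the melanoma line. It was 2.48-fold (2.2 to 2.81) and 2.70-fold (2.31 to 3.17) lower after CPYPP, close to the values of AJUBA. GADD45A, a stress-inducible growth arrest gene, went from 1219 to 2257 counts and from 1136 to 5919, which is 2.47-fold (2.30 to 2.65) and 6.49-fold (6.09 to 6.92) upward. The receptor tyrosine kinase AXL, with log2 fold changes of −0.34 and −0.43, and CRIM1, with −0.24 and −0.34, were lower in both lines without reaching 2-fold. ARHGEF17, a guanine nucleotide exchange factor, had −0.51 and −0.76, and TGFB2, a TGF-beta ligand, −0.66 and −0.21.

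F3, tissue factor, had the reverse of the CCN2 pattern. It went from 45864 to 20342 counts in the breast line, 1.69-fold lower (1.66 to 1.72), and from 519 to 527 in the melanoma line, a ratio of 1.26 (1.12 to 1.43). PTPN14, a phosphatase that restrains YAP1, had ratios of 1.17 (1.14 to 1.21) in the breast line and 0.716 (0.690 to 0.742) in the melanoma line, the directions of CCN2 and ANKRD1 at a smaller size. NUAK2, a kinase of the AMPK family, had log2 values of −0.62 and 0.34, the latter with an interval of its ratio from 0.980 to 1.63. MYOF had −0.09 and −0.21, NT5E −0.10 and −0.47, DOCK5 −0.04 and −0.30, and RBMS3 −0.14 and −0.05. ASAP1 stood at 0.26 and 0.04, FOXF2 at 0.16 and −0.18, CCDC80 at −0.33 and 0.05, and IGFBP3 at −0.28 in the breast line.

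**Figure D5:**
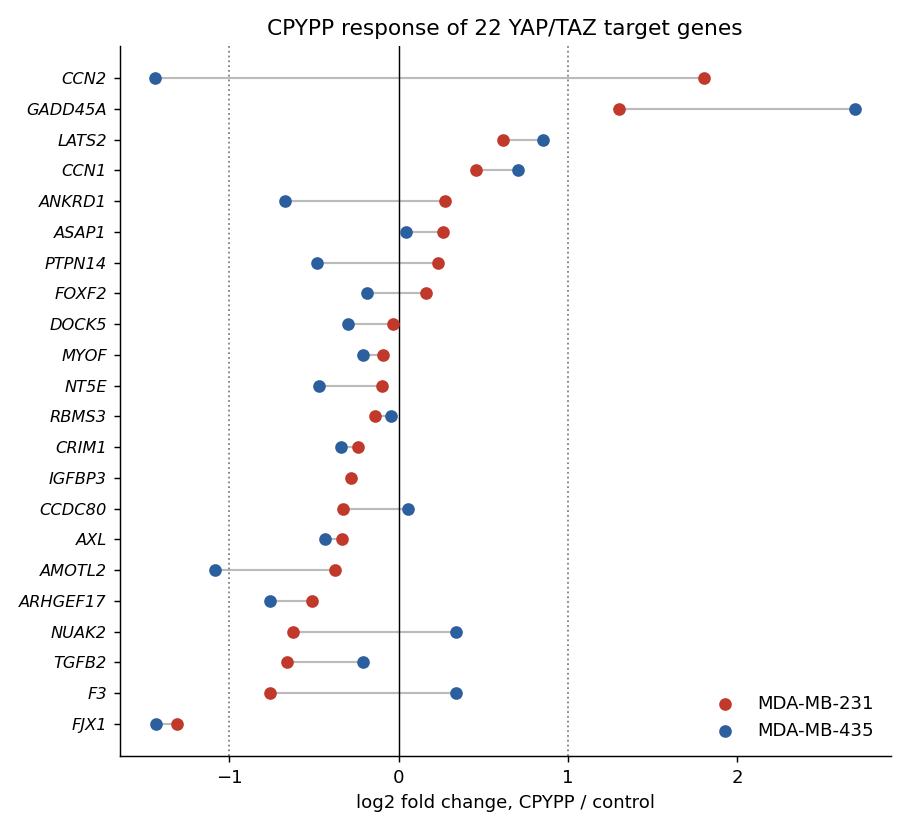
The log2 ratio of CPYPP to control for 22 YAP/TAZ target genes, ordered by the value in MDA-MB-231 (red) and joined to the value in MDA-MB-435 (blue), with dotted lines at 2-fold. IGFBP3 has no point for MDA-MB-435, where its counts were 0, and CCN2 has the longest line, from 1.80 to −1.44.

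Of 36 components of the Hippo pathway, most were within 2-fold. In the breast line, 33 could be examined, of which 0 were past 2-fold upward and 1 (AJUBA) downward, beside 5.02% and 5.69% of all genes, with a median log2 fold change of 0.12 against −0.04 over all genes. In the melanoma line, 34 could be examined, with 0 upward, 3 downward (AJUBA, AMOTL2 and FAT4), beside 3.62% and 10.7% of all genes, and a median of 0.03 against −0.07. The downward calls were thus no more frequent than among all genes in either line. FAT4, an atypical cadherin upstream of the kinases, had 1691 and 1464 counts in the breast line, a ratio of 1.15 (1.08 to 1.24), but only 28 and 9 counts in the melanoma line, 2.5-fold lower (1.15 to 6.02). WWC1, a scaffold of the pathway also called KIBRA, had 3895 and 1889 counts in the breast line and at most 3 in the melanoma line.

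Of the 6 genes of the CCN family, 4 could be examined in each line. In the breast line CCN2 was past 2-fold upward and CCN5 downward, beside 5.02% and 5.69% of all genes. In the melanoma line 0 were upward, and CCN2 and CCN4 were downward, beside 3.62% and 10.7% of all genes. CCN1, CCN2 and CCN3 could be examined in both lines. Of these, CCN2, for which the set was proposed, was the only gene past 2-fold in both. CCN3 had 235 and 148 counts in the breast line, a log2 fold change of −0.25, and 5811 and 2663 counts in the melanoma line, 1.75-fold lower (1.67 to 1.84), so that the line with the lower CCN2 held the higher CCN3. CCN4 went from 25 to 2 counts in the melanoma line, 10.0-fold lower with a counting interval of 2.5 to 87.5. With counts below 3 taken as 3, as for the other genes, it was 6.69-fold lower (2.04 to 34.6). CCN5 went from 18 to 6 counts in the breast line, 2.25-fold lower (0.856 to 6.93). CCN6 had at most 3 counts in any library.

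Lists of targets of the other inputs known for CCN2 were looked up as well. The activity of these inputs was not measured, and their part in the change of CCN2 was not tested. Of 11 TGF-beta/SMAD targets, 0 were past 2-fold in the breast line, beside 5.02% upward and 5.69% downward of all genes, and the median log2 fold change was 0.01 against −0.04. In the melanoma line, 0 were upward and 2 downward, SMAD6 with 650 and 222 counts at 2.35-fold (2.02 to 2.75) and COL1A1 with 47 and 14 counts at 2.70-fold (1.46 to 5.30). Of all genes, 3.62% were upward and 10.7% downward there. The 11 values had a median of −0.36, against −0.07 over all genes, and ran from −1.43 to −0.02. COL1A1 is also one of the fibroblast markers. Of 14 SRF/MRTF targets, 1 was past 2-fold in the breast line, CNN1 with 6 and 13 counts, and 0 of the 13 examined in the melanoma line, and the medians were 0.06 and −0.12, against the same shares and medians over all genes.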

How the data were processed

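Poly(A)-selected RNA of 4 libraries was analysed. The study's processing notes name cutadapt 1.9.1, HISAT2 2.2.1, HTSeq 0.6.1, DESeq2 and GRCh37.p13, while 58196 of the 58254 gene identifiers shared with GENCODE release 29 have positions that overlap those of GRCh38, so positions are given on GRCh38. The strand setting is not given in the sources used here. Raw read counts per gene, not normalized, were deposited by the authors together with exon lengths.

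Libraries were scaled with edgeR 4.0.16 (TMM over the 4 libraries, factors 0.974 to 1.05) in R 4.3.3, and ratios, intervals and plots were made in Python 3.11.15 with scipy 1.17.1 and matplotlib 3.10.9. In fold changes a count below 3 was taken as 3, and the ratio of CCN4 in the melanoma line is also given without this rule. A count of 3 is between 0.126 and 0.179 CPM. With 1 library per condition, and with the genes proposed from the same contrast, no test was made. The genes and lists were chosen with earlier results of these data known. All members, every signature gene and the other listed genes past 2-fold were named by rule, as were the 5 genes nearest to CCN2. LATS1, TEAD2, TEAD3, CCN3, CCN6, WWC1, LIMD1, AMOTL1, FN1, VCL and ZYX were named after their values were seen, and 1 listed gene is not reported here by name. Promoter sequences are from RefSeq. Interval coverage was tested on simulated counts that held counting error only, so that check cannot speak to the spread between cultures or libraries.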

Additional observations from a re-analysis of the deposited data

Results flagged for a closer look

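Among the 10 genes and the lists set beside them, some had counting intervals of the CPYPP response on opposite sides of no change in the lines. For these genes the only treated library of each line differed the other way from its control. How many of all genes meet the same rule was not counted, and small gaps meet it where counts are high, so it does not set these lists apart. The difference between the lines was not tested for any of them. As the log2 fold change in MDA-MB-231 minus that in MDA-MB-435, the gap was 3.24 for CCN2 and 0.94 for ANKRD1. It was 1.53 for the cadherin FAT4, which rests on 28 and 9 counts in the melanoma line, and 0.714 for PTPN14. The LATS-binding LIM protein LIMD1, a relative of AJUBA, had a gap of 0.732, and AMOTL1, a relative of AMOTL2, one of 0.573. Smaller gaps were found for the matrix gene FN1 at 0.549 and the focal adhesion genes VCL at 0.318 and ZYX at 0.215. F3, lower in the breast line and higher in the melanoma line, had a gap of −1.10. Over all genes the median size of the gap was 0.262, larger than the gap of ZYX.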

How the results depend on the processing

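The responses were recomputed with total counts, DESeq2 size factors and upper-quartile scaling, with FPKM and a pseudocount of 1, and with TMM within each line, which was chosen after seeing the data. CCN2 kept its directions and stayed past 2-fold in both lines under all of these, between 1.75 and 1.89 on the log2 scale in the breast line and between −1.54 and −1.36 in the melanoma line, and upper-quartile scaling gave the 1.89, beyond the counting interval. No call of the 10 genes changed with the scaling, but AMOTL2 in the melanoma line ran from −1.18 to −1, which reaches the 2-fold line. The rule of the whole interval past 2-fold was applied with TMM over the 4 libraries only. Among the 10 genes only YAP1 and WWTR1 in the melanoma line changed sign, with log2 values from −0.03 to 0.15 and from −0.15 to 0.03. With a threshold of 1.5-fold in place of 2-fold, 2 of the 10 genes were called higher in each line, and of the signature genes 4 were lower in the breast line, 3 higher in the melanoma line and 5 lower in it, beside 13.2%, 9.36% and 19.8% of all genes. In the breast line the share of calls that were upward, over all genes, was 46.8% with TMM and between 45.0% and 54.9% with the other scalings. In the melanoma line that share was 25.3% with TMM and between 19.7% and 31.1% with the others, so most calls there were downward under each scaling. No paired analysis was possible because each condition has 1 library. Depth limits genes with few counts, such as FAT4 in the melanoma line, and the spread between cultures is unknown.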
